A study of Arabidopsis thaliana with 24 samples.

Results

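The LHCB1 family of Arabidopsis thaliana consists of 5 nuclear genes that encode the major proteins of LHCII, the trimeric light-harvesting complex of photosystem II. The members were taken by locus: LHCB1.1 (AT1G29920, also CAB2), LHCB1.2 (AT1G29910, CAB3), LHCB1.3 (AT1G29930, CAB1), LHCB1.4 (AT2G34430, LHB1B1) and LHCB1.5 (AT2G34420, LHB1B2). Under the same rule 22582 annotated nuclear genes had a listed start site cluster, so the members are 5 of 22582, and all 5 were listed. A cluster was given to a gene when it lay on the gene's strand with its peak between 500 bp upstream of the annotated gene start and the gene end, and its tags were summed per gene.

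Start sites were measured by CAGE, which traps capped RNA 5′ ends and sequences a tag from each, in aerial parts of wild-type seedlings grown for 2 weeks. For each of 4 accessions (Vash-1, Shigu-2, Kly-1, Altenb-2), the labels describe 3 libraries of plants given 24 h of high light with cold (140 µE and 4 °C) and 3 libraries of control plants (40 µE and 22 °C), 24 libraries in 8 groups. The deposited clusters form 4 separately numbered sets, named here by accession from the initial of the set's prefix alone. Libraries, treatments and replicates have no columns of their own, so each set is 1 pooled value, no test across samples could be made, and accession and treatment cannot be told apart in any difference between sets.

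LHCB1 proteins bind chlorophyll a, chlorophyll b and carotenoids and pass excitation energy to the reaction centre of photosystem II. They are made in the cytosol as precursors, imported into the chloroplast and placed in the thylakoid membrane through the chloroplast signal recognition particle pathway. Phosphorylated LHCII can move between the photosystems, and the genes, known since early work as CAB genes, are classic examples of control by light and the clock.

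The sets held between 22462179 tags (Altenb-2) and 37230794 tags (Shigu-2) outside the rRNA gene repeats, and levels are given as CPM, which scales tags to 1000000 of these. The repeats took between 40.8% (Shigu-2) and 54.6% (Altenb-2) of all tags. A listed cluster had at least 5 tags. Tags are read from captured 5′ ends and not along the gene, so CPM values of different genes need no division by gene length. Intervals are 95% intervals of counting error only, since no molecular identifiers are mentioned and PCR copies may be among the tags. In bulk tissue, fewer cells of a type and less RNA per cell cannot be told apart. Of the leaf markers (RBCS1A, RCA, CA1, PSAD1 and GLDP1), all 5 were listed in every set, at 755 to 20308 CPM, and of the root markers EXPA7 was listed in no set, COBL9 had 5 tags in Vash-1 alone, and LRX1, PRP3 and PHT1;1 had 0.989 to 6.50 CPM.

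The members lie in 2 groups on the TAIR10.1 reference, and each is annotated as a single exon without introns. On chromosome 1, LHCB1.2 (10472280 to 10473502) and LHCB1.1 (10474656 to 10475969) are on the minus strand and LHCB1.3 (10477885 to 10479114) is on the plus strand. On chromosome 2, LHCB1.5 (14522524 to 14523568) is on the minus strand and LHCB1.4 (14524607 to 14525918) on the plus strand. LHCB1.3 and LHCB1.1 are thus transcribed away from each other, with 2061 bp between their main peaks, and so are LHCB1.4 and LHCB1.5, with 1192 bp between theirs.

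The bases upstream of the annotated gene start are shown for LHCB1.1 and LHCB1.5, whose main start sites lie close to it, at 25 and 4 bp inside the gene. They begin 150 bp before the main peak. Capitals mark the TATA letters, CCAAT and a longer run, AAAAATCT, in LHCB1.1. LHCB1.1 is chr1:10475970-10476094 and LHCB1.5 is chr2:14523569-14523714, both read on the minus strand of TAIR10.1.
LHCB1.1: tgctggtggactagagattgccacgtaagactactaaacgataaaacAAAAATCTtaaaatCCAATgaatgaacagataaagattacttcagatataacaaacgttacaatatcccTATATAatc
LHCB1.5: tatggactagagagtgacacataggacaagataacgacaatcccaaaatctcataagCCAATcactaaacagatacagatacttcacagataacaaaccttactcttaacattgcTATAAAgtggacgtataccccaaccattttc

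For the other 3 genes the main start site lies 120 bp (LHCB1.3), 149 bp (LHCB1.4) and 203 bp (LHCB1.2) inside the annotated first exon. Only the stretch from 45 to 16 bp before the peak is shown for them, with the TATA letters in capitals: chr1:10473315-10473344 (minus strand), chr1:10477960-10477989 (plus strand) and chr2:14524711-14524740 (plus strand).
LHCB1.2: cgcaattttccTATATAatccaaccctacc
LHCB1.3: agatttctgtatTATATATAgcgaaaatcg
LHCB1.4: catatgtacgtTATAAAtacccaaaaacct

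The 20 bases around each main peak show the start site itself, from 10 bp before it to 9 bp after it. The first capital marks the peak base, and further capitals in LHCB1.4 mark a CCAAT. In the order printed the stretches are chr1:10475935-10475954 (minus strand), chr1:10473290-10473309 (minus), chr1:10477995-10478014 (plus), chr2:14524746-14524765 (plus) and chr2:14523555-14523574 (minus).
LHCB1.1: agttttaatcActctcactc
LHCB1.2: attttcaatcActctcactc
LHCB1.3: ataccaaaccAcccatttct
LHCB1.4: taacctagctAtCCAATttc
LHCB1.5: attttcaatcActctcacca

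TATAAA or TATATA, the core of the TATA box that positions transcription initiation, started 33 to 35 bp before the main peak in all 5 genes, with a second overlapping TATATA in LHCB1.3 at 31 bp. Searched on the sense strand with starts from 40 to 25 bp before the peak, either motif was present in 21.8% of 15747 other promoters. CCAAT, the core letters bound by NF-Y factors, was found in 5 of 5 windows from 150 bp before to 9 bp after the peak, on either strand, against 35.1% of the other promoters. It began 89 to 93 bp before the peak in 4 genes and 111 bp before it in LHCB1.4, which had a further CCAAT 2 bp after the peak. GATAAG, the I-box of light-regulated genes, was present in LHCB1.3 and LHCB1.4 (2 of 5, against 9.71%), and AAAAATCT or AACAATCT, the motif at which the clock factor CCA1 was found to bind LHCB1.3, in LHCB1.1, LHCB1.3 and LHCB1.4 (3 of 5, against 5.29%). CACGTG, the G-box, was in 0 of 5 windows and 7.25% of the others, and CCGAC, the core of the cold-responsive CRT element, in 0 of 5 and 11.8%. Both strands were searched for each of these. A match is a run of letters in the reference and not a shown binding site.

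Upstream sequence and coding sequence grouped the members differently. The coding sequences, 798 to 804 bp long, were 95.6 to 96.4% identical among the 3 genes of chromosome 1, 91.5% between LHCB1.4 and LHCB1.5, and 86.8 to 90.4% across the chromosomes. In the 150 bp upstream of the main peak, LHCB1.1 and LHCB1.2 were 80.6% identical, and LHCB1.5 on the other chromosome was 75% identical to LHCB1.2 and 69.4% to LHCB1.1. All other pairs were at 54.8 to 59.2%, including LHCB1.3 with its neighbours on chromosome 1 and LHCB1.4 with LHCB1.5.

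Together the 5 genes took 7.71% of the Altenb-2 tags, 5.56% of the Kly-1 tags, 5.45% of the Vash-1 tags and 4.19% of the Shigu-2 tags. As CPM, the family sum was 77133 in Altenb-2, 55565 in Kly-1, 54542 in Vash-1 and 41872 in Shigu-2. The Altenb-2 level was thus the highest of the 4 and the Shigu-2 level the lowest, at a ratio of 1.84 (1.838 to 1.846). Kly-1 and Vash-1 differed by a ratio of 1.02 (1.016 to 1.021), which is beyond counting error, but their order turned when levels were scaled by the median of ratios over genes. Only the ends of the order, Altenb-2 high and Shigu-2 low, held under each scaling tried.

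**Figure D1:**
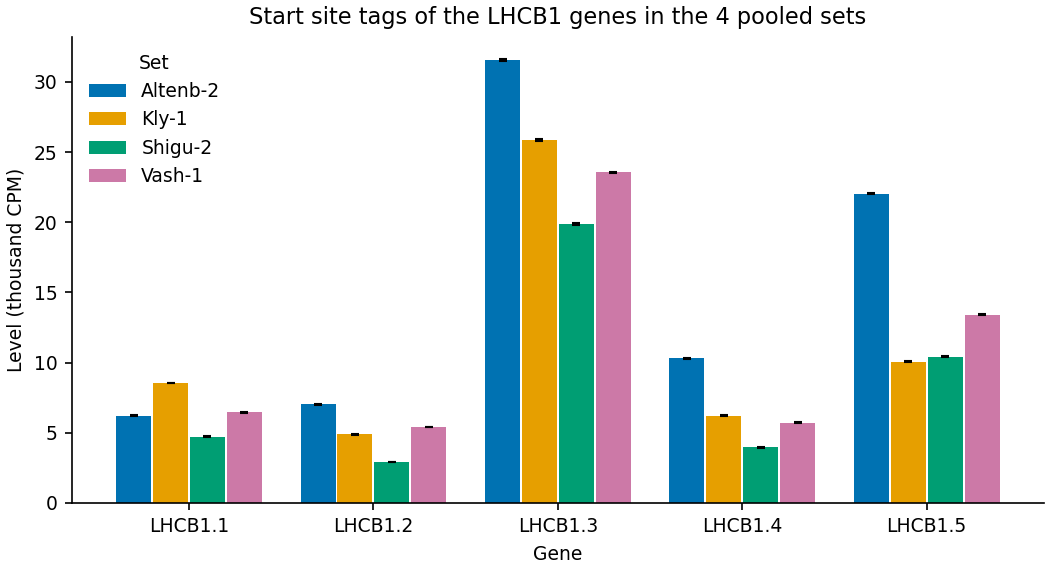
CPM of each LHCB1 gene (bars, in units of 1000, from 0) in the 4 pooled sets, with 95% counting intervals as short black bars. LHCB1.3 is the tallest in every set, at 19873 to 31569 CPM, and LHCB1.1 is the only gene whose highest bar is that of Kly-1.

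LHCB1.3, the CAB1 gene, was the most abundant of all listed genes in every set. Altenb-2 had 31569 CPM, Kly-1 25886 CPM, Vash-1 23551 CPM and Shigu-2 19873 CPM. This was the narrowest spread among the members, 1.59-fold between Altenb-2 and Shigu-2 (1.583 to 1.594). With rRNA tags kept in the denominator its order changed to Kly-1 highest and Vash-1 lowest, 1.31-fold apart.

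LHCB1.5 came second within the family in every set and ranked 2nd to 4th among all genes. Its level was 22045 CPM in Altenb-2, 13401 CPM in Vash-1, 10426 CPM in Shigu-2 and 10047 CPM in Kly-1. Altenb-2 stood apart from the other 3 sets, at 1.65 times the level of Vash-1 and 2.19 times that of Kly-1 (2.184 to 2.204). The 2 lowest sets differed by a ratio of only 1.04 (1.033 to 1.043), and Shigu-2 was the lowest under the median of ratios.

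LHCB1.4, its neighbour on chromosome 2, stood at 10291 CPM in Altenb-2, followed by Kly-1 with 6213 CPM, Vash-1 with 5722 CPM and Shigu-2 with 3949 CPM. The ratio of Altenb-2 over Shigu-2 was 2.61 (2.589 to 2.623), the widest spread of the 5 genes. Kly-1 and Vash-1 lay close together, at a ratio of 1.09.

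LHCB1.2 had 7019 CPM in Altenb-2, 5411 CPM in Vash-1, 4877 CPM in Kly-1 and 2907 CPM in Shigu-2. Altenb-2 over Shigu-2 was 2.41-fold (2.395 to 2.433). In Shigu-2 the gene ranked 26th among all genes, against 10th to 13th in the other 3 sets.

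LHCB1.1, which lies next to LHCB1.2 and has the most similar upstream sequence, followed another order. Its level was 8542 CPM in Kly-1, 6458 CPM in Vash-1 and 6210 CPM in Altenb-2, while Shigu-2 had 4716 CPM. Kly-1 was 1.81 times Shigu-2 (1.800 to 1.822). Vash-1 exceeded Altenb-2 by a ratio of only 1.04 (1.033 to 1.048), and these sets changed places under the median of ratios. Kly-1 was the highest and Shigu-2 the lowest set for this gene under each scaling.

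The highest and lowest sets were 2-fold or more apart for 3 of 5 members (LHCB1.2, LHCB1.4 and LHCB1.5), while 23.5% of the 14774 genes with at least 5 CPM in some set reached this. With rRNA tags in the denominator 0 of 5 did, LHCB1.4 coming closest at 2.00-fold just below the limit, while the share among all genes at 5 CPM on that scale was 33.0% of 12362. Set against the mean of the other 3 on the scale of log2(CPM + 0.5), 0 of 5 members were 2-fold higher or lower in any set. Of all genes tested, 3.63% were 2-fold higher in Vash-1 and 4.24% were 2-fold lower. The Shigu-2 shares were 3.76% (higher) and 3.67% (lower), those of Kly-1 3.91% and 2.75%, and those of Altenb-2 2.74% and 4.55%. The members nearest to the limit were LHCB1.4 and LHCB1.5 in Altenb-2, with log2 differences of 0.99 and 0.98, and LHCB1.2 in Shigu-2, with −0.97. Under the median of ratios LHCB1.4 and LHCB1.5 passed it in Altenb-2 (higher), as did 3.61% of all 14728 genes at 5 CPM on that scale. LHCB1.2 and LHCB1.4 passed it in Shigu-2 (lower), as did 4.58% of these genes.

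The family as a sum differed from the mean of the other 3 sets by 0.62 in Altenb-2 and −0.56 in Shigu-2 on that scale. In Kly-1 and Vash-1 the differences were −0.01 and −0.05, and their signs turned with the scaling. The median over all tested genes ran the other way, at −0.13 in Altenb-2 and 0.16 in Shigu-2. Among the 80 genes with 1000 CPM or more in every set, members included, the medians were 0.15 in Altenb-2 and −0.24 in Shigu-2. In Altenb-2, 6 of these 80 genes lay above the family sum, and 3 of the 6 were members. In Shigu-2, 15 of the 80 lay below it, again with 3 members among them. The 5 leaf markers summed to 33869 CPM in Vash-1, 30484 in Altenb-2, 29393 in Kly-1 and 26418 in Shigu-2. Scaled to the tags outside the repeats, their sum was thus lowest in Shigu-2 too, and highest in Vash-1. By gene, 3 of 5 were lowest in Shigu-2, while RBCS1A was lowest in Altenb-2 and GLDP1 was highest in Shigu-2. The order of the leaf sum depends on the scaling. With rRNA tags in the denominator Altenb-2, and not Shigu-2, has the lowest leaf sum. The repeats took 54.6% of the tags in Altenb-2 and 40.8% in Shigu-2. The order under the median of ratios was not examined. The 5 root markers summed to 14.4 CPM in Altenb-2, 12.02 in Vash-1, 5.91 in Shigu-2 and 5.12 in Kly-1, EXPA7 being at 0 in all 4. The part of tissue make-up in the family differences was not tested.

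**Figure D2:**
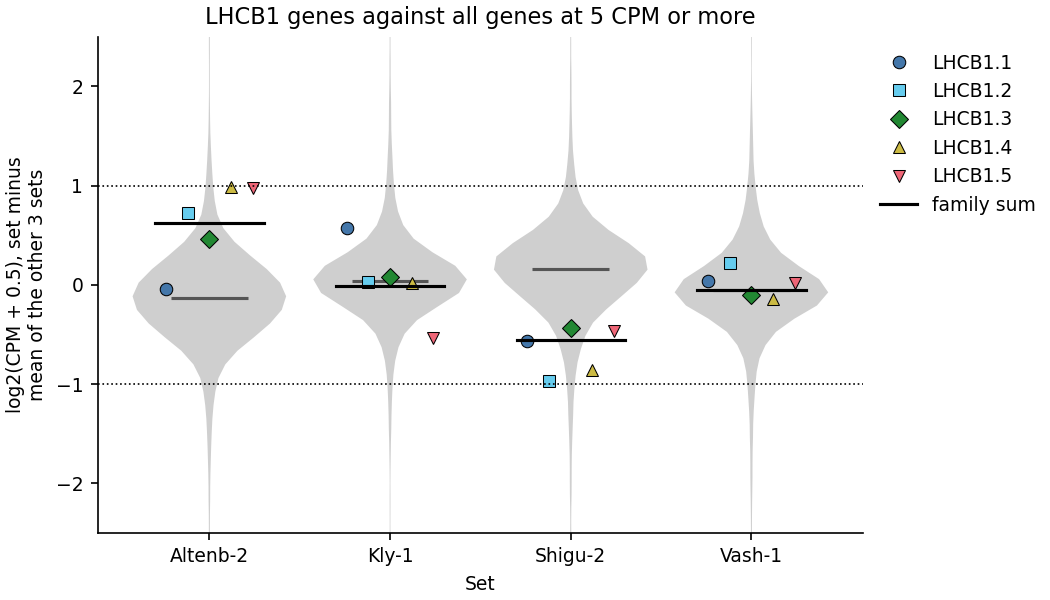
Log2 differences of each set from the mean of the other 3 sets for the LHCB1 genes (symbols), their sum (black line) and all 14774 genes with 5 CPM or more in some set (grey shapes, median as grey line). Dotted lines mark 2-fold; all 5 members lie below 0 in Shigu-2, and 4 of 5 lie above 0 in Altenb-2.

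Within a set, the share of a member among the LHCB1 tags needs no scaling between sets. LHCB1.3 supplied 47.5% of the family's tags in Shigu-2, 46.6% in Kly-1, 43.2% in Vash-1 and 40.9% in Altenb-2. LHCB1.5 supplied 28.6% in Altenb-2, 24.9% in Shigu-2, 24.6% in Vash-1 and 18.1% in Kly-1. Counting intervals of these shares were within 0.1 percentage points of the value. At the extremes, LHCB1.1 supplied 15.4% in Kly-1 and 8.05% in Altenb-2. LHCB1.2 supplied 9.92% in Vash-1 and 6.94% in Shigu-2, and LHCB1.4 13.3% in Altenb-2 and 9.43% in Shigu-2.

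LHCB1.1 and LHCB1.2 changed places between sets. The ratio of LHCB1.1 over LHCB1.2 was 1.75 in Kly-1, 1.62 in Shigu-2, 1.19 in Vash-1 and 0.885 in Altenb-2 (0.878 to 0.891). Altenb-2 was thus the one set in which LHCB1.1 had fewer tags than LHCB1.2, and there it was the lowest of the 5 genes. LHCB1.3 over LHCB1.5 was 2.58 in Kly-1, 1.91 in Shigu-2, 1.76 in Vash-1 and 1.43 in Altenb-2. By chromosome, the 3 genes of chromosome 1 made up 70.7% of the family in Kly-1, 65.7% in Shigu-2, 64.9% in Vash-1 and 58.1% in Altenb-2.

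**Figure D3:**
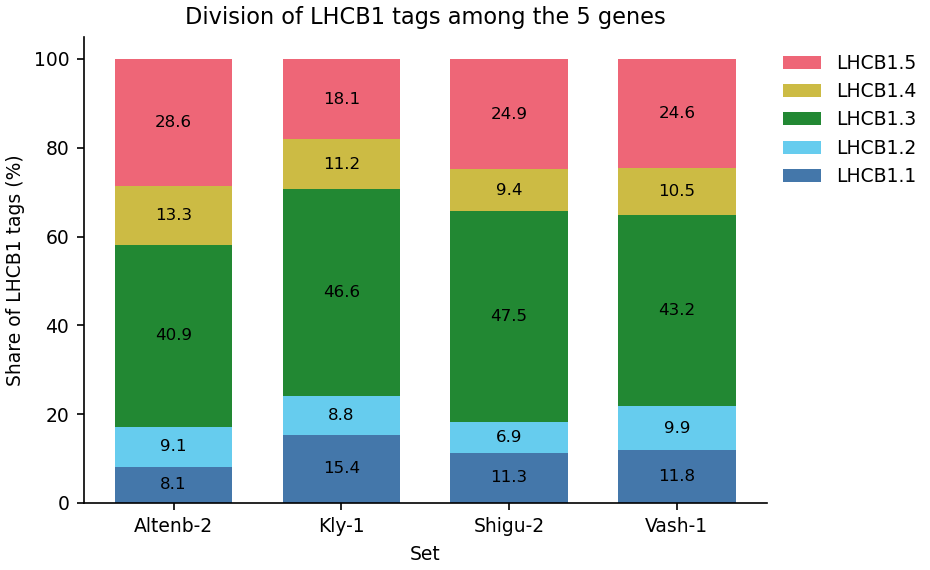
Share of each gene in the LHCB1 tags of a set, in percent, stacked to 100%. LHCB1.3 holds the widest band in each set, the LHCB1.5 band is narrowest in Kly-1 at 18.1%, and the LHCB1.1 band is widest there at 15.4%.

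The main cluster held 96.1 to 99.4% of a gene's tags, and its peak base was the same in all 4 sets for 5 of 5 members. Among the 3129 other genes with 1000 tags or more in every set, 74.5% had 1 peak base in all sets. These genes were not matched in abundance to the members, which had 108246 to 758750 tags per set. Of the other antenna genes with that many tags, 7 of 8 LHCB2 to LHCB7 genes and 3 of 6 LHCA genes did. The main peaks were at 10475944 (LHCB1.1), 10473299 (LHCB1.2) and 10478005 (LHCB1.3) of chromosome 1, and 14524756 (LHCB1.4) and 14523564 (LHCB1.5) of chromosome 2. They leave 5′ leaders of 52, 53, 66, 62 and 51 bp before the start codon, in the same order. The step into the peak base, which is usually a pyrimidine followed by a purine at plant start sites, was CA at 4 genes and TA at LHCB1.4.

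Initiation was concentrated on that 1 base. In LHCB1.1 it took 92.5 to 93.5% of the main cluster's tags over the 4 sets, in LHCB1.2 89.2 to 90.9%, in LHCB1.3 89.2 to 89.3%, and in LHCB1.5 86.8 to 87.8%. In LHCB1.4 it took 90.4% in Kly-1 and 89.9% in Shigu-2, but 85.4% in Altenb-2 and 84.7% in Vash-1. Counted over all tags of LHCB1.4, whatever their cluster, the same base held 89.9%, 89.3%, 84.8% and 84.2% in this order of sets. The sets of LHCB1.5 also fell into a higher and a lower pair, but closer together. Its main cluster values were 87.8% in Kly-1 and 87.7% in Altenb-2, and 86.8% in both Shigu-2 and Vash-1. The median over the 3129 other genes, not matched in abundance, was 39.5 to 40.7%. The members stood at the 96.3rd to 99.2nd percentile of these genes. Averaged over sets, the median gene of the list had 89.2% for LHCB1, 55.1% for LHCB2 to LHCB7 and 41.1% for LHCA. The lowest LHCB1 gene, at 87.3%, was above the highest of the LHCB2 to LHCB7 genes, at 79.5%. These are descriptions of 1 value per gene, with no test.

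**Figure D4:**
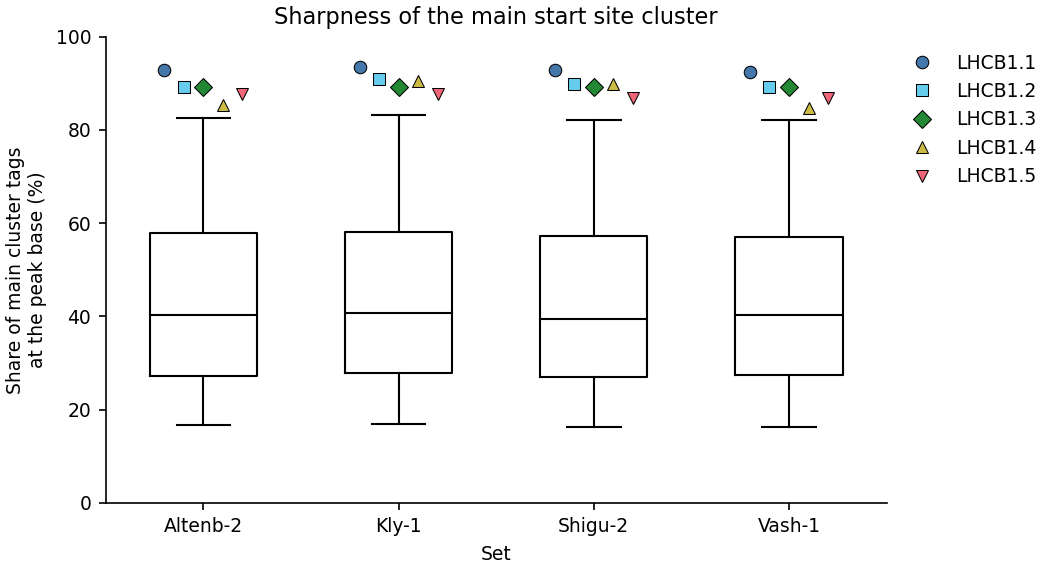
Share of the main cluster's tags at its peak base, in percent, for the LHCB1 genes (symbols) and 3129 other genes with 1000 tags or more in every set (box, quartiles and median; whiskers, 5th and 95th percentile). All members lie above the upper whisker in each set, with LHCB1.4 lowest in Altenb-2 at 85.4% and Vash-1 at 84.7%.

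Minor clusters before the start codon held at most 0.105% of a member's tags. LHCB1.3 had one peaking 208 bp before the start codon, upstream of the annotated gene start. It had 187 tags (8.33 CPM) in Altenb-2, 167 (4.49 CPM) in Shigu-2 and 135 (4.61 CPM) in Kly-1. In Altenb-2 it was 84 bp wide, against 26 bp in Shigu-2 and Kly-1, so the 187 tags cover a longer stretch. Its peak base held 64 tags in Altenb-2, 79 in Shigu-2 and 50 in Kly-1. In Vash-1 the cluster there peaked 218 bp before the start codon and had 56 tags. LHCB1.2 had 110 tags in Vash-1 in a single cluster of 35 bp peaking 97 bp before its start codon. Over the same stretch Kly-1 had 2 clusters of 26 and 30 tags, Shigu-2 had 2 of 21 and 16 tags, and Altenb-2 had 1 of 20 tags beside a main cluster that reached into the stretch. LHCB1.4 had 127 tags in Kly-1 at 100 bp before the start codon, a base over which the main cluster itself reached in the other 3 sets. Counted once per set, 25 of the 28 minor clusters upstream of start codons peaked on a pyrimidine-purine step, and so did 20 of 20 main clusters. As distinct positions these were 16 of 19 and 5 of 5.

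Clusters with a peak inside the coding sequence were found in every member and set. They held 2.13 to 3.84% of the tags of LHCB1.2, 1.38 to 1.67% of LHCB1.3, 0.558 to 1.198% of LHCB1.5, 0.575 to 0.726% of LHCB1.1 and 0.546 to 0.655% of LHCB1.4. Each cluster counts whole by its peak, and many main clusters ran past the start codon, so these shares depend on where clusters were cut. In LHCB1.5 the main cluster ran to 14523457 in Kly-1, where the next coding cluster had 1956 tags. In Altenb-2 it ran further, to 14523337, and the next one had 986 tags. For comparison, the share of tags in clusters peaking past the start codon, 3′ UTR included, was taken over 75 other genes with 1000 CPM or more in every set. It had a median of 0.750 to 0.892% and an upper quartile of 1.43 to 1.96% per set. Measured the same way, LHCB1.2 (2.15 to 3.86%) was above the upper quartile in all 4 sets. LHCB1.3 (1.38 to 1.67%) lay between the median and the upper quartile in all 4, with 20 to 24 of the 75 genes above it. Counted once per set, 51 of 108 coding peaks were on a pyrimidine-purine step and 41 on GG. GG was at 0 of 20 main peaks and 0 of 28 minor upstream peaks. These counts repeat bases found in several sets. As distinct positions, 30 of 59 coding peaks were on a pyrimidine-purine step and 22 on GG. GG was at 0 of 5 distinct main and 0 of 19 distinct minor upstream positions. No such share for coding peaks of other genes is given here.

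When the coding sequences were aligned to LHCB1.3, some coding peaks of different members fell on the same base and others only near each other; how many would do so by chance was not tested. The strongest coding cluster of LHCB1.3 peaked 555 bp past the start of the coding sequence, on GG, with 4047 to 6697 tags per set. LHCB1.5 had one at its own base 555, on GG, with 662 to 1416 tags, which aligned 6 bp further on, and LHCB1.2 one at 556, on GC, in 2 sets. A cluster at aligned base 386, on CG, was found in LHCB1.3 and LHCB1.5 in 4 sets each, and in LHCB1.4 in 1 set. LHCB1.1 and LHCB1.2 shared a GG peak at base 311, each in 2 sets. LHCB1.3 also had 2066 to 4880 tags per set in a cluster at base 105, on GA, where no other member had a peak with 100 tags or more. In none of these coding clusters of LHCB1.3 did the peak base hold more than 497 tags in a set.

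Near-identical copies can exchange tags, and the sources used here do not say how tags with several matches were treated. A tag from the main peak becomes unique in the reference after 16 bases for LHCB1.3 and LHCB1.5, 17 for LHCB1.4 and 23 for LHCB1.1 and LHCB1.2, whose RNAs share their first 22 bases. Inside the coding sequences, 438 bases need more than 75 bp to be unique, and 0 of these 438 were covered by a listed cluster of any set. Of the 3573 coding bases that are unique within 75 bp, 2878 (80.5%) were covered. The limit of 75 bp was chosen after these values were seen, and it equals the largest value at a covered base. The coding shares above thus hold nothing from these stretches, and whether tags that begin there were dropped was not tested. With the main cluster alone, member levels were lower by 0.551 to 3.90%, so the levels rest almost wholly on the main peak regions. The sequences of the 4 accessions were not used here, so differences between accession and reference at these bases were not tested.

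**Figure D5:**
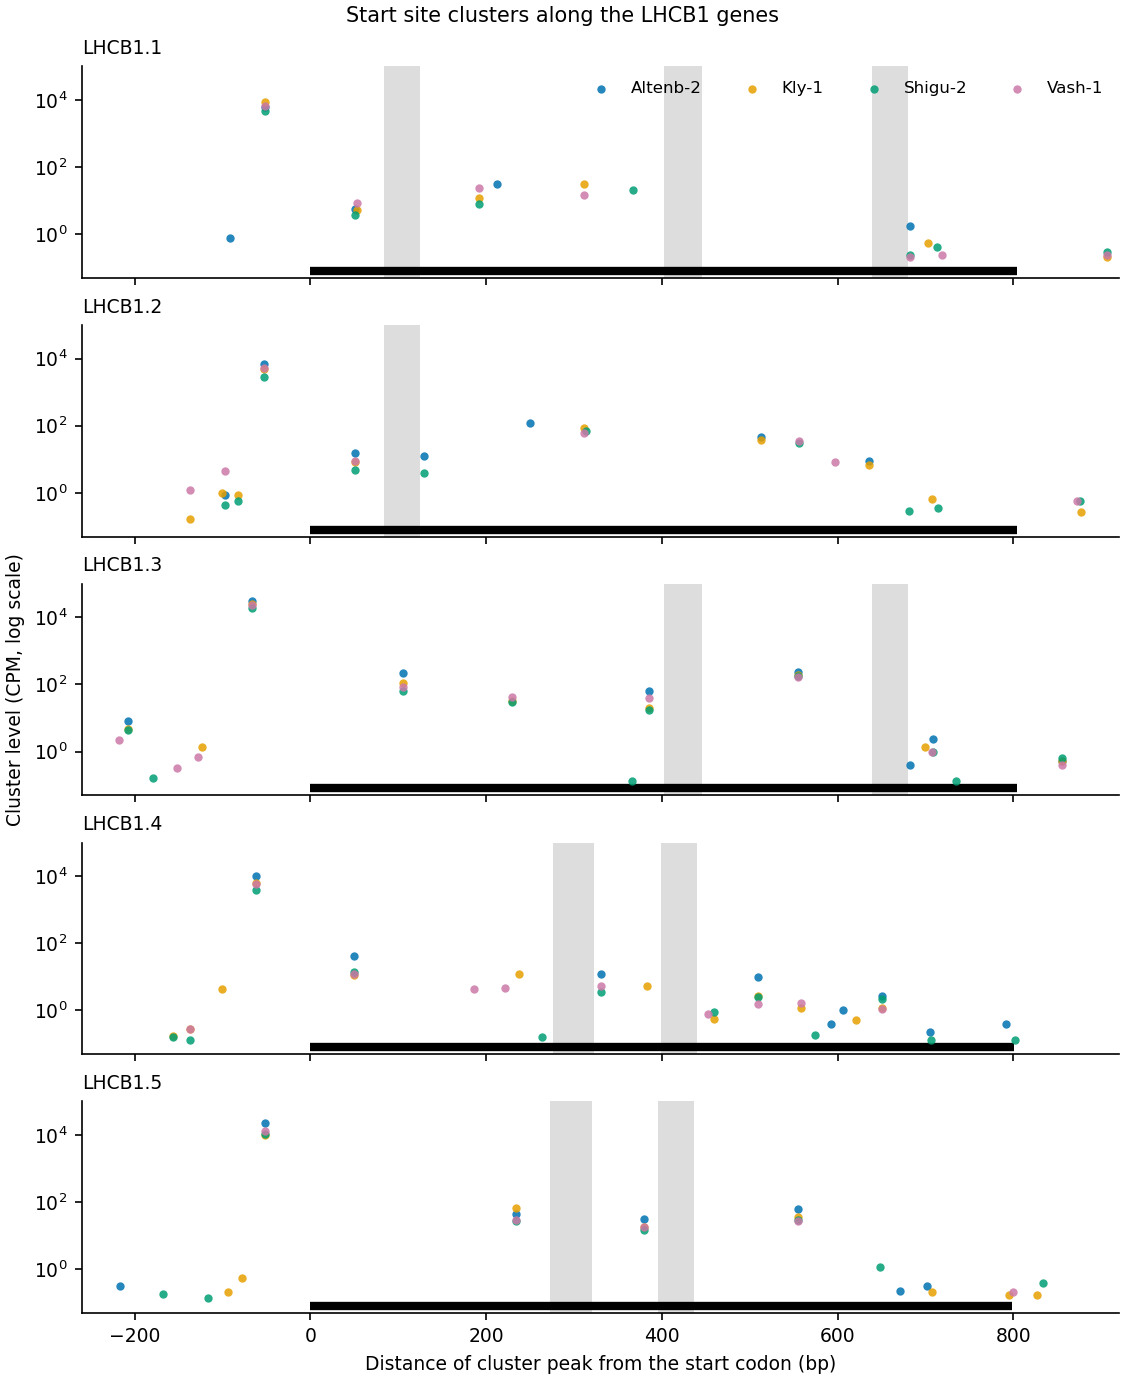
Each point is a listed start site cluster, by the distance of its peak from the start codon (bp, x axis) and its level (CPM, log y axis), for the 5 genes and 4 sets. The black bar is the coding sequence, and grey bands are coding bases that need more than 75 bp to be unique in the reference. That no point lies in a band follows from the choice of 75 bp, the largest value at a covered base. The highest point of each gene lies 51 to 66 bp before the start codon.

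The LHCB1 genes supplied most antenna tags. Of the tags of all 21 antenna genes considered, LHCB1 took 65.0% in Altenb-2, and Kly-1 (64.1%), Shigu-2 (63.5%) and Vash-1 (60.0%) followed. The LHCB2 to LHCB7 genes, which encode the minor and the other major antenna proteins of photosystem II, summed to 24756 CPM in Altenb-2, 22423 in Vash-1, 18495 in Kly-1 and 13985 in Shigu-2. The LHCA genes of photosystem I summed to 16752, 13972, 12665 and 10127 CPM in the same order of sets. Both sums were thus highest in Altenb-2 and lowest in Shigu-2, as the LHCB1 sum was. By gene, Shigu-2 was the lowest set for 4 of 5 LHCB1, 7 of 10 LHCB2 to LHCB7 and 4 of 6 LHCA genes, against 16.4% of all genes tested. With rRNA tags in the denominator it was lowest for 3 of 5, 5 of 10 and 4 of 6, against 6.51% of all genes, and under the median of ratios for 5 of 5, 7 of 10 and 4 of 6, against 26.8%. The genes behind these percentages were not matched in abundance to the antenna genes. In Shigu-2 the median log2 difference was −0.24 over the 80 genes with 1000 CPM or more in every set, and 0.16 over all genes tested. Of the other antenna genes, 3 of 10 LHCB2 to LHCB7 and 2 of 6 LHCA genes spanned 2-fold between sets, beside the 23.5% of all genes.

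The 14 regulators and handling proteins of the antenna were far less abundant than LHCB1, at 5.48 to 581 CPM. They spanned 2-fold between sets in 4 of 14 cases, near the 23.5% of all genes. CPFTSY, the chloroplast receptor of the signal recognition particle, had 31.3 CPM in Kly-1, 13.7 in Vash-1, 13.2 in Shigu-2 and 9.79 in Altenb-2, and was the 1 gene of the list past 2-fold against the mean of the other sets, higher in Kly-1. HY5, a light-signalling bZIP factor, had 45.1 CPM in Vash-1, 34.4 in Shigu-2, 24.0 in Kly-1 and 21.4 in Altenb-2. NOL, a chlorophyll b reductase subunit, had 33.3 CPM in Altenb-2, ahead of Kly-1 with 27.9, Shigu-2 with 24.0 and Vash-1 with 15.2. SGR1, which removes magnesium from chlorophyll, had 11.6 CPM in Shigu-2, 8.84 in Vash-1, 7.91 in Kly-1 and 5.48 in Altenb-2, the reverse of the LHCB1 order at its ends. Such ends were common: of all genes tested, 39.1% were lowest in Altenb-2 and 41.5% highest in Shigu-2. Of the 14 genes of the list, 6 were lowest in Altenb-2 and 5 highest in Shigu-2. The list's median log2 difference was −0.11 in Altenb-2 and 0.04 in Shigu-2, beside 0.72 and −0.57 for the LHCB1 genes and −0.13 and 0.16 for all genes.

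Among 5737 protein-coding genes outside the family with 20 CPM or more in every set, 5 were closest to the family sum in their pattern over the 4 sets, by the Euclidean distance of centred log2(CPM + 0.5). ATP-PRT1 (AT1G58080, distance 0.065), the first enzyme of histidine synthesis, had 131 CPM in Altenb-2, 100 in Kly-1, 94.4 in Vash-1 and 72.9 in Shigu-2. AT3G54210 followed at 0.066 with 462 to 800 CPM, DJ1A (AT3G14990) at 0.070 with 83.0 to 162 CPM, PIF4 (AT2G43010), a phytochrome-interacting transcription factor, at 0.099 with 56.9 to 96.2 CPM, and AT1G54820 at 0.128 with 69.3 to 121 CPM. With 4 points per gene this likeness is a description only. Being picked as the nearest of 5737, these 5 genes are no measure for the members. Of the members, LHCB1.3 was at 0.17 from the family sum, with 19 of the 5737 genes (0.331%) closer. LHCB1.4 was at 0.36 (4.29% closer), LHCB1.2 at 0.38 (5.09%), LHCB1.5 at 0.48 (12.1%) and LHCB1.1 at 0.66, with 1784 genes (31.1%) closer. Each member is itself part of the sum, and LHCB1.3 supplies 40.9 to 47.5% of it. The closeness of a member is thus partly built in, and its rank among genes outside the sum is no like comparison.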

How the data were processed

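The authors deposited 1 table of start site clusters with whole-number counts of tags per cluster and per peak base, not normalized, and a peak ratio, a fraction that equals the peak count over the cluster count in 100% of rows. Per the file headers, each row also has its ends, width and peak position in bp. The submitters' processing notes name STAR 2.7.9a as aligner; neither a build nor a filter nor a rule for clustering is given in the sources used here. On TAIR10.1, 70.7% of the 317183 peaks lie on a pyrimidine-purine step, against 7.69% and 2.93% when every peak is moved 1 bp upstream or downstream.

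Members and lists were chosen with earlier results of these data known. Counts were summed per gene and set and divided by the tags outside annotated nuclear rRNA genes padded by 5000 bp. Intervals at 95% were exact Poisson (levels), Wilson (shares) and exact binomial (ratios). Denominators, windows, count minimums and pseudocounts were varied. The named genes were the members, the handling genes past 2-fold and the 5 nearest genes; other antenna genes are given as counts and sums. Planned tests of treatment needed library columns and were not run. Sequences and coordinates are from RefSeq, TAIR10.1. Coding and upstream sequences were aligned globally with Biopython 1.88. Steps were tested on simulated data. Software was Python 3.11.15, pandas 2.3.3 and SciPy 1.17.1.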

Additional observations from a re-analysis of the deposited data

Results flagged for a closer look

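Clusters on the strand opposite to a member were not part of any comparison. Within the windows of the 5 genes, 3 were listed, all at LHCB1.3 on chromosome 1: 1 of 12 tags in Altenb-2, peaking at 10478719, and 2 in Shigu-2, of 11 tags peaking at 10478716 and of 6 tags peaking at 10478327. A count of 0 allows up to 3 tags, and an unlisted cluster can hold up to 4. Opposite to LHCB1.5, where the annotation has a long non-coding RNA (AT2G08665), no cluster was listed in any set.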

How the results depend on the processing

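No paired analysis was possible because no column names a library or replicate; leaving out replicates was not possible for the same reason. With all tags as denominator the family level was 35019 CPM in Altenb-2, 30976 in Kly-1, 25584 in Vash-1 and 24796 in Shigu-2, and its log2 differences were 0.38, 0.14, −0.23 and −0.29 in that order of sets. With the median of ratios the levels were 83072, 54508, 55955 and 38632, and the differences 0.76, −0.050, 0.00074 and −0.71. The main cluster alone gave 76146, 54848, 53932 and 41330 CPM, and the window ending at the start codon 76156, 54862, 53941 and 41336 CPM. The highest-over-lowest ratio of the family was 1.41 with all tags and 2.15 with the median of ratios. Genes spanning 2-fold numbered 3468, against 4075 with all tags, 3303 with the median of ratios, 6186 with no minimum level and 1725 at 20 CPM. A window from 200 bp upstream and a minimum of 20 tags moved no member's level or share beyond its counting interval, nor did a pseudocount of 1 any difference. Depth limits only the minor clusters: 5 tags, the smallest listed, are 0.134 CPM in Shigu-2 and 0.223 CPM in Altenb-2.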
